A study of Mus musculus with 6 samples.

Results

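Ppp1r3b and 7 other genes of liver glycogen metabolism were followed in livers of mice with and without the double-stranded RNA receptor TLR3. The members were chosen by name, as Ppp1r3b, Ppp1r3c, Ppp1r3g, Gys2, Pygl, Gbe1, Ugp2 and Phka2, each read from the probe set that the array annotation gives to that gene alone. All 8 were found, with 1 probe set each, among 10347 tested genes with 1 symbol. Ppp1r3b was put at the centre because its difference between these same livers was already known. The values of the 8 genes are therefore given as a description, with no test.

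Liver RNA came from untreated mice aged 3 months, 3 of genotype TLR3-/- and 3 of genotype TLR3wt, bred in house under SPF conditions. The labels name the C57Bl/6 strain for the TLR3wt mice and give the TLR3-/- mice by genotype alone, while the series text names C57Bl/6 once for the study. The mice were separate animals with 1 oligonucleotide array each. The TLR3-/- allele, the feeding state and the hour of collection are not given in the sources used here.

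Glycogen is the branched glucose store that hepatocytes build after a meal and break down between meals. Glycogen synthase is active when dephosphorylated and glycogen phosphorylase when phosphorylated, so protein phosphatase 1 (PP1), acting on both, favours storage. PP1 is brought to the glycogen particle by targeting subunits of the PPP1R3 family, of which Ppp1r3b encodes GL, the main form in liver, and Ppp1r3c encodes PTG (protein targeting to glycogen). Insulin is known to raise Ppp1r3b in liver, and glucagon and adrenaline act through phosphorylase kinase to start breakdown.

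Values are log2 RMA signals with a floor at 5, below which the deposited table holds no level. The arrays had between 15081 and 15226 probe sets above this floor. TLR3wt replicate 3 stood apart from the other TLR3wt mice on the second principal component (17.6 against -14.5 and -11.1, 22.2% of the variance). The differences of the 8 genes, and of some other genes, are therefore also given without it. A difference given only once can also have moved without this liver. Hepatocyte markers fitted the labelled tissue, with Alb at 13.08 in TLR3wt and 13.06 in TLR3-/- livers and 9 of 9 measured markers above the floor in all 6 livers. Tlr3 stood at the floor of 5 on all 6 arrays, so the array gave no check of the genotype.

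The 3 measured PP1 targeting subunits among the members did not go one way: Ppp1r3b and Ppp1r3g were lower and Ppp1r3c was higher in TLR3-/- livers. Ppp1r3b (probe set 10571321) was 8.21, 8.39 and 8.36 in TLR3wt replicates 1 to 3 and 7.07, 7.23 and 6.97 in TLR3-/- replicates 1 to 3. The groups lay 0.98 apart at their closest mice, against SDs of 0.10 and 0.13. The means of 8.32 ± 0.10 and 7.09 ± 0.13 (SD, n = 3 each) gave a difference of -1.23 on the log2 scale, 2.35-fold lower in TLR3-/- livers. Without TLR3wt replicate 3 the difference was -1.21.

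Ppp1r3c (probe set 10467206) moved the other way and varied more among TLR3wt mice. Its signal was 6.43, 6.68 and 7.69 in the TLR3wt livers and 7.92, 8.26 and 8.44 in the TLR3-/- livers. The groups did not overlap, but TLR3wt replicate 3 came within 0.23 of the lowest TLR3-/- liver. The means were 6.93 ± 0.66 in TLR3wt and 8.21 ± 0.26 in TLR3-/- livers (SD, n = 3 each), a difference of 1.28 on the log2 scale or 2.42-fold higher. Without TLR3wt replicate 3 it was 1.65.

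Ppp1r3g (probe set 10404595), a further PP1 glycogen-targeting subunit found in liver, was close to the floor. It was 5.93, 5.82 and 5.31 in the TLR3wt livers and at 5 in all 3 TLR3-/- livers. Since the TLR3-/- level is only bounded, the TLR3wt mean of 5.69 ± 0.33 (SD, n = 3) made Ppp1r3g at least 1.61-fold lower in TLR3-/- livers. The log2 difference against the floor was -0.69, and -0.88 without TLR3wt replicate 3.

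**Figure D1:**
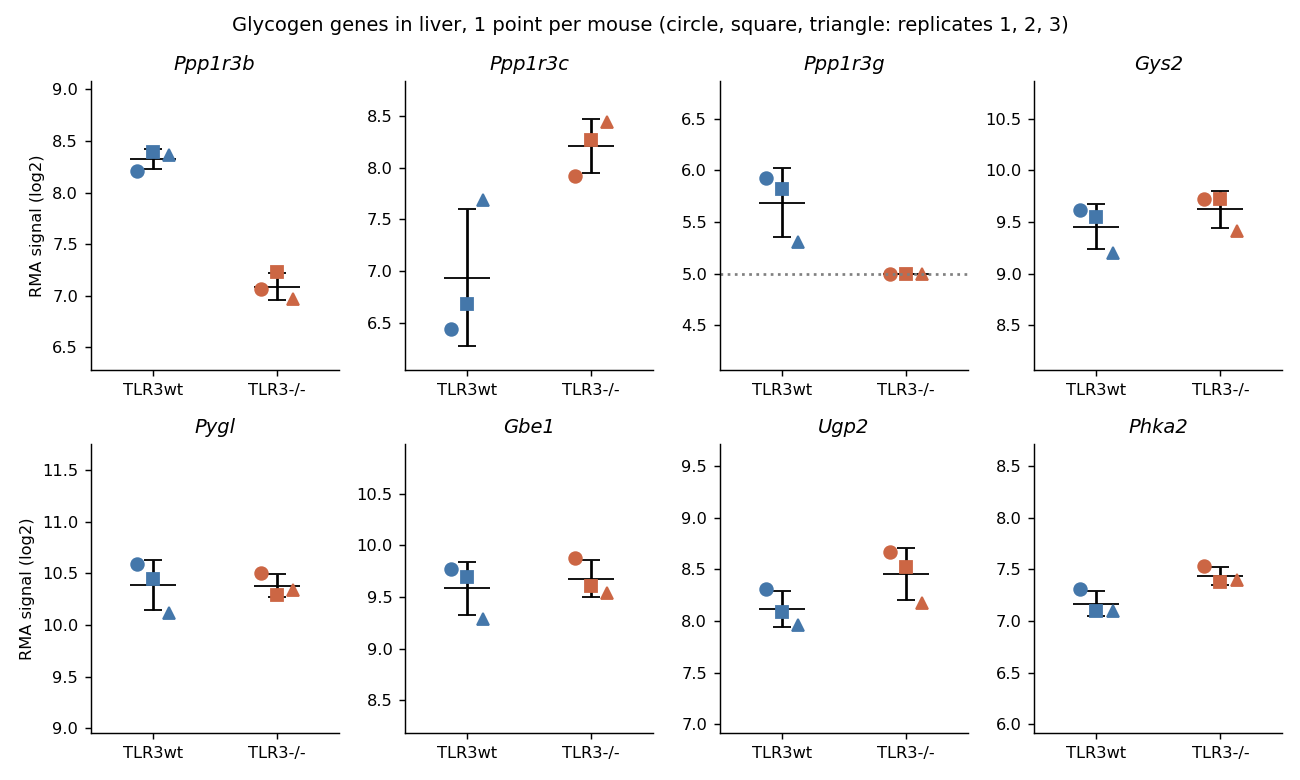
RMA signal (log2) of the 8 genes in each liver, TLR3wt in blue and TLR3-/- in orange, with the group mean and SD as bars; each panel spans the same height and the dotted line is the floor of 5. Ppp1r3b is lower in all 3 TLR3-/- livers, Ppp1r3c higher and Ppp1r3g at the floor, while the groups of Gys2, Pygl, Gbe1 and Ugp2 overlap.

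The promoter windows of Ppp1r3c and Ppp1r3g are shown because these targeting subunits differed in opposite directions. Each window is the 250 bases before the RefSeq gene start (GRCm38.p6), written 5′ to 3′ along the gene, Ppp1r3c from chr19:36736605-36736854 on the minus strand and Ppp1r3g from chr13:35967656-35967905 on the plus strand. Windows were found for 6 of the 8 genes, but not for Ppp1r3b or Gys2. Capitals mark matches on either strand to ACGTG, the core of hypoxia response elements, TGACG, the core of cAMP response elements, GTAAACA, a forkhead (FOXO) core, or CACGTG, an E-box.
Ppp1r3c: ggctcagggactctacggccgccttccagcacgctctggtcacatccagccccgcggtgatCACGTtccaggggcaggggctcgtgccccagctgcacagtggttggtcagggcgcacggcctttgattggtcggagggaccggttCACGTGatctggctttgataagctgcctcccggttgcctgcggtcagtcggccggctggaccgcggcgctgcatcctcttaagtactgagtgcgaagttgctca
Ppp1r3g: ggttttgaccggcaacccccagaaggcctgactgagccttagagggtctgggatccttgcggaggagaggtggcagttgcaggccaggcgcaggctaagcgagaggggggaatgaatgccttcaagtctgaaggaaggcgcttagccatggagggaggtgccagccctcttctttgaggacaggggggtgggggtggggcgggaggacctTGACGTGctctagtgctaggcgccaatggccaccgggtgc

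The Ppp1r3c window held CACGTG 104 bases before the start, a match that contains ACGTG on each strand, and a separate CACGT, the reverse of ACGTG, 189 bases before it. The Ppp1r3g window held TGACG 40 bases before the start, overlapping ACGTG at 38 bases. Of 32851 RefSeq windows of this length, 16.6% held the hypoxia core, 17.8% the cAMP response core, 6.0% the E-box and 3.2% the FOXO core. Neither window held GTAAACA. Of the windows not shown, that of Pygl, whose difference was -0.01, held both ACGTG and the reverse of TGACG. A Ugp2 window held ACGTG, and those of Gbe1 and Phka2 held no match. The part of such matches in the differences was not tested. These matches are letters in the reference sequence, with no binding measured here.

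Of the enzymes that build glycogen, Gys2 and Gbe1 had small differences of means and Ugp2 a larger one, and the groups overlapped in all 3. Gys2 (probe set 10549079), the liver form of glycogen synthase, was 9.61, 9.55 and 9.20 in TLR3wt and 9.72, 9.73 and 9.41 in TLR3-/- livers. The groups overlapped, with TLR3-/- replicate 3 below TLR3wt replicates 1 and 2, and the means of 9.46 ± 0.22 and 9.62 ± 0.18 (SD, n = 3 each) differed by 0.17 on the log2 scale. That difference was 0.04 without TLR3wt replicate 3.

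Gbe1 (probe set 10436500), the branching enzyme, was 9.77, 9.70 and 9.29 in TLR3wt and 9.88, 9.61 and 9.54 in TLR3-/- livers. Of the 3 TLR3-/- livers 2 lay within the TLR3wt range, the difference of means was 0.09, and without TLR3wt replicate 3 it was -0.06. Ugp2 (probe set 10384579), which makes the UDP-glucose that glycogen synthase uses, was 8.30, 8.08 and 7.96 in TLR3wt and 8.67, 8.52 and 8.17 in TLR3-/- livers. Only TLR3-/- replicate 3 lay within the TLR3wt range. The means of 8.12 ± 0.17 and 8.45 ± 0.26 (SD, n = 3 each) differed by 0.34, or by 0.26 without TLR3wt replicate 3.

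On the breakdown side, Pygl and Phka2 gave different pictures. Pygl (probe set 10400844), the liver glycogen phosphorylase, was 10.59, 10.45 and 10.12 in TLR3wt and 10.50, 10.29 and 10.34 in TLR3-/- livers. All 3 TLR3-/- livers lay within the TLR3wt range, and the difference of means was -0.01, or -0.14 without TLR3wt replicate 3. Phka2 (probe set 10602925), the liver regulatory subunit of phosphorylase kinase, was 7.31, 7.10 and 7.10 in TLR3wt and 7.53, 7.38 and 7.40 in TLR3-/- livers. The TLR3-/- livers were all higher, by a gap of 0.07 between the closest mice. The means of 7.17 ± 0.12 and 7.44 ± 0.09 (SD, n = 3 each) differed by 0.27, or by 0.23 without TLR3wt replicate 3.

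Mice of one group also differed from each other in the same members. TLR3wt replicate 3 had the lowest signal of its group for Gys2, Pygl, Gbe1 and Ugp2, at -0.25, -0.27, -0.29 and -0.16 from the group mean, and the highest for Ppp1r3c, at 0.75. TLR3-/- replicate 3 had the highest Ppp1r3c of its group, at 0.23 from the mean, and the lowest Gys2, Gbe1 and Ugp2, at -0.21, -0.13 and -0.28. In each group replicate 1 had the lowest Ppp1r3c and the highest Pygl, Gbe1, Ugp2 and Phka2. Ppp1r3b did not follow this order: it deviated by at most 0.14 in any mouse and was lowest in TLR3wt replicate 1 and TLR3-/- replicate 3 of their groups. With 3 mice a group, these orders are a description.

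**Figure D2:**
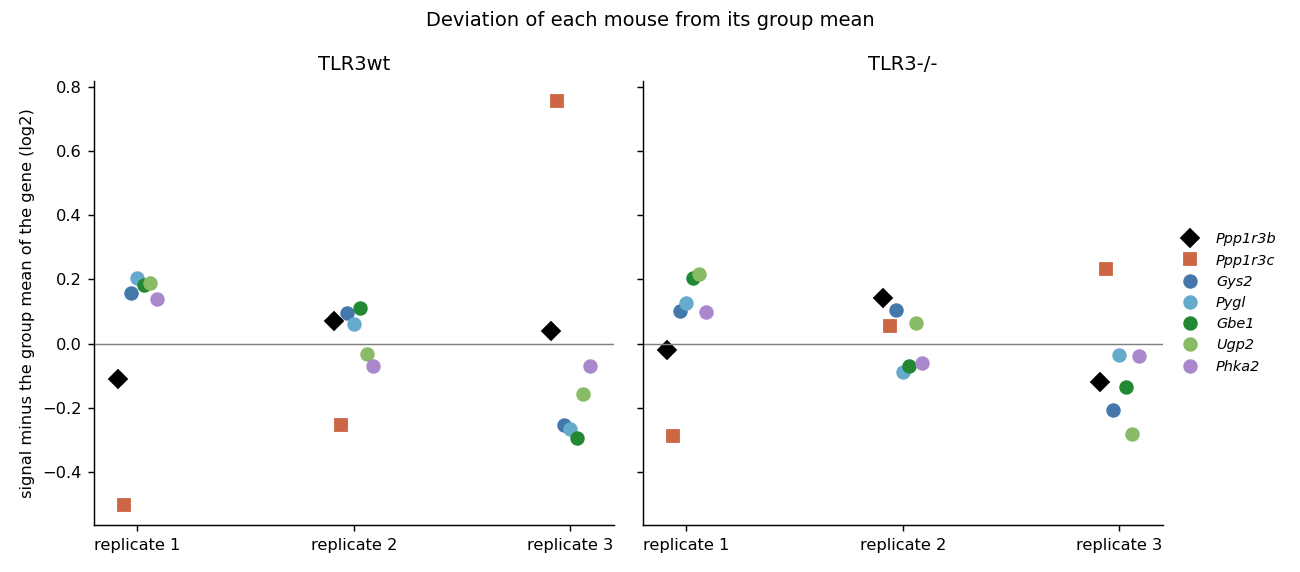
Signal of each mouse minus the mean of its own group (log2) for the 7 members above the floor on all arrays, TLR3wt left and TLR3-/- right. Replicate numbers are those of the sample titles, which state no pairing. Ppp1r3c (squares) is at -0.50 and -0.25 in TLR3wt replicates 1 and 2 and at 0.75 in replicate 3, where Gys2, Pygl, Gbe1 and Ugp2 lie below 0, and Ppp1r3b (diamonds) stays within 0.14 of 0.

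Set among all genes as a description, the sizes of these differences were uneven. All 8 members were chosen with earlier results of these data known, so the ranks test nothing. The log2 difference exceeded in size that of 99.7% of the 10347 tested genes for Ppp1r3c, 93.2% for Ugp2, 88.6% for Phka2, 73.8% for Gys2, 49.2% for Gbe1 and 4.7% for Pygl. No rank is given for Ppp1r3b, which was chosen for its difference, or for Ppp1r3g, which was tested only because of its TLR3wt values and has a bound in place of a TLR3-/- level. The groups did not overlap in 4 members, Ppp1r3c and Phka2 as higher and Ppp1r3b and Ppp1r3g as lower, where 15.1% of tested genes were higher and 7.62% lower without overlap, and nothing is read from these counts. In limma's fit 1 of the 8, Ppp1r3b, was among the called genes (0.087% of the 10347 genes, and 0.186% of all 16639 tested probe sets), and this call is the value that chose it. Ppp1r3b no longer passed when any single liver was dropped (each of the 3 TLR3wt and each of the 3 TLR3-/- livers), or when probe sets without signal in any liver entered the fit, while its log2 difference stayed between -1.30 and -1.17.

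**Figure D3:**
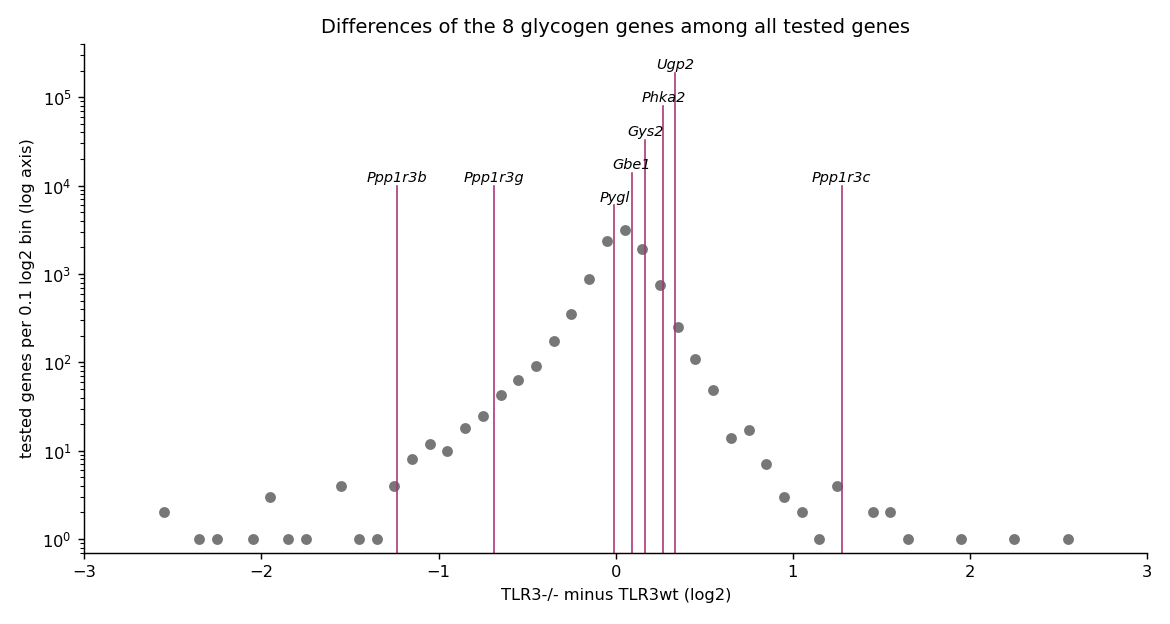
Grey points give the number of tested genes in each 0.1-wide bin of the TLR3-/- minus TLR3wt difference (log2; the vertical axis is logarithmic), and vertical lines mark the 8 members, with line heights set only to separate the names. Ppp1r3b at -1.23 and Ppp1r3c at 1.28 lie in the sparse tails, and Pygl at -0.01 and Gbe1 at 0.09 lie in the most populated bins.

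The wider glycogen pathway was read from 7 lists arranged by role, 71 genes in all, of which 66 had a probe set of their own, 6 were at the floor in every liver and 60 were tested. Of the 52 that were not among the 8 members, 1 passed limma's adjusted p of 0.05 as lower, Igfbp1, whose difference was known when the lists were written, and 0 passed as higher. Higher means in TLR3-/- livers were found in 55.8% of the 52, against 60.9% of all tested genes. At an unadjusted p under 0.05 there were 7 higher and 7 lower, 26.9% of the 52 against 15.7% of all tested genes. Non-overlapping groups were found in 9 higher (17.3%) and 6 lower (11.5%) of the 52, where 15.1% of all tested genes were higher and 7.62% lower without overlap. The median log2 difference of the 52 was 0.01, and that of all tested genes was 0.03.

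Among the other PP1 subunits, the phosphatase itself was measured without a difference that passed. The catalytic subunit genes Ppp1ca, Ppp1cb and Ppp1cc had log2 differences of 0.00, 0.04 and 0.11 in size. Ppp1r3d and Ppp1r3e, further targeting subunits, differed by 0.01 and -0.07. Ppp1r3d was close to the floor in every liver and at it in 1 liver of each group, so little can be read from its difference. Ppp1r3a, the muscle form, and Ppp1r3f were at the floor in all 6 livers. Of the 8 tested genes of this list, Ppp1r3b alone passed limma's adjusted threshold, and this call is the value that chose it. The 3 without overlap between the groups were members, Ppp1r3b, Ppp1r3c and Ppp1r3g, the last at the floor in all 3 TLR3-/- livers. Over all tested genes 15.1% were higher and 7.62% lower without overlap, and nothing is read from this count.

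Of the 7 tested synthesis genes, 4 had higher and 3 lower means in TLR3-/- livers, and 0 passed limma's adjusted p (2 at an unadjusted p under 0.05, Pgm2 and Stbd1). Pgm1, a phosphoglucomutase named after its values were seen, had means of 9.66 in TLR3wt and 9.68 in TLR3-/- livers, with overlap. Pgm2, also named as a phosphoglucomutase, lay closer to the floor. It was 5.75, 5.73 and 5.79 in TLR3wt and 5.59, 5.47 and 5.36 in TLR3-/- livers, without overlap (limma adjusted p = 0.187). Stbd1, a glycogen-binding protein that links glycogen to lysosomal disposal, had a difference of -0.34, or -0.24 without TLR3wt replicate 3 (limma adjusted p = 0.304), again without overlap. Of the 7 tested breakdown genes, 5 had higher and 2 lower means, and 0 passed limma's adjusted p (Pygb was the 1 gene besides the members at an unadjusted p under 0.05).

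Pygb, the phosphorylase form named for brain, was 5.63, 5.90 and 6.47 in TLR3wt and 5.36, 5.19 and 5.37 in TLR3-/- livers. The groups did not overlap, TLR3wt replicate 3 was the highest liver, and the difference of -0.70, or -0.46 without that liver, did not pass (limma adjusted p = 0.227). Phkg2, the catalytic phosphorylase kinase subunit of liver, differed by 0.11 (limma adjusted p = 0.416). In the list for laforin and malin, proteins that limit abnormal glycogen, 0 of 2 tested genes passed limma's adjusted p (1 at an unadjusted p under 0.05, Epm2aip1). Epm2aip1, a partner of laforin, differed by 0.24, and Nhlrc1, which encodes malin, was at 6.89 in both groups (limma adjusted p = 0.283 and 1).

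**Figure D4:**
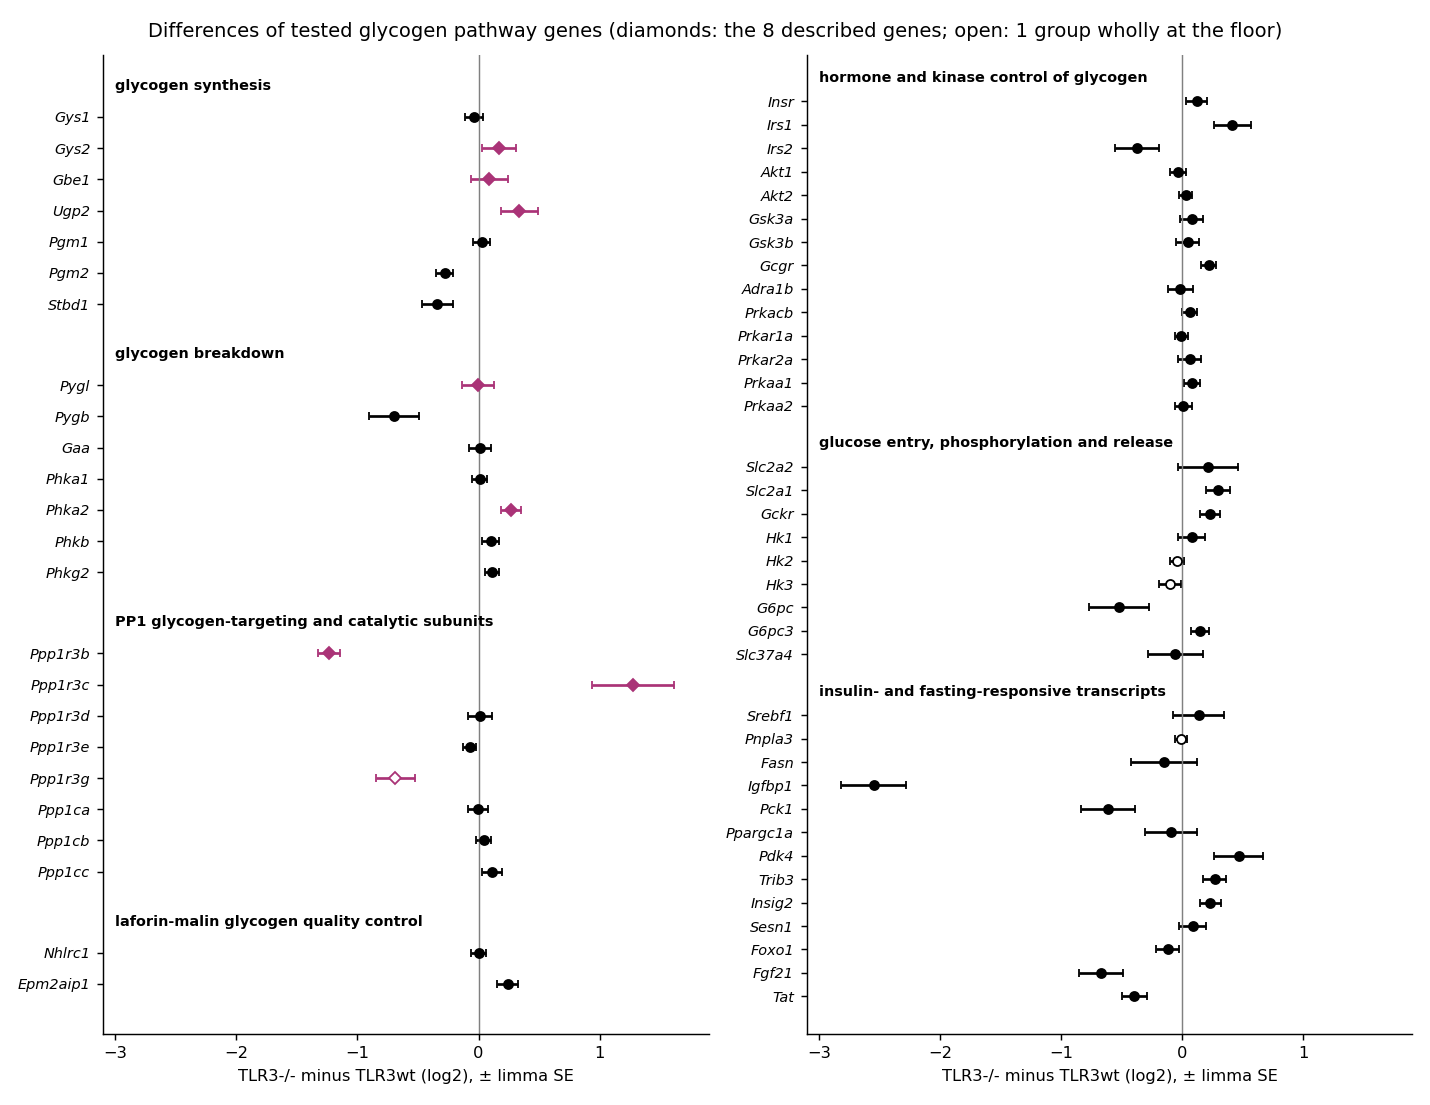
TLR3-/- minus TLR3wt difference (log2) of the 60 tested pathway genes by list, with limma standard errors as bars; diamonds are the 8 members and open symbols have 1 group wholly at the floor, so that only a bound is measured. Most genes lie close to 0, Igfbp1 at -2.55 and Ppp1r3b at -1.23 lie farthest to the left, and Ppp1r3c at 1.28 farthest to the right.

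Genes of hormone and kinase control were mostly close to 0. Of 14 tested, 10 had higher and 4 lower means, where 60.9% of all tested genes were higher. Of the 14, 0 passed limma's adjusted p (2 at an unadjusted p under 0.05, Gcgr and Irs1). Gcgr, the glucagon receptor gene, was 9.12, 9.15 and 9.07 in TLR3wt and 9.23, 9.41 and 9.34 in TLR3-/- livers, without overlap (limma adjusted p = 0.228). Irs1 and Irs2, adaptors of the insulin receptor, had differences of 0.41 and -0.38 (limma adjusted p = 0.303 and 0.399), and the groups overlapped for Irs2. Without TLR3-/- replicate 2 these were 0.26 for Irs1 and -0.23 for Irs2, and Irs2 was at -0.24 without TLR3wt replicate 3.

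Glucose transport and phosphorylation genes gave 5 higher and 4 lower means among 9 tested, and 0 passed limma's adjusted p (2 at an unadjusted p under 0.05, Slc2a1 and Gckr). Among the lower, Hk2 and Hk3, named after their values were seen, were each at the floor in 2 TLR3wt and 3 TLR3-/- livers. Slc2a1, a glucose transporter, and Gckr, the regulator of glucokinase, had differences of 0.30 and 0.23 (limma adjusted p = 0.275 and 0.282). Without TLR3wt replicate 3 the differences were 0.40 and 0.18. G6pc, the glucose-6-phosphatase that releases free glucose, was 11.49, 11.69 and 10.93 in TLR3wt and 10.89, 10.48 and 11.16 in TLR3-/- livers, and the groups overlapped (limma adjusted p = 0.394). Its difference was -0.52, or -0.74 without TLR3wt replicate 3 and -0.34 without TLR3-/- replicate 2.

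The transcripts known to respond to insulin or fasting held the 1 called gene of these lists besides Ppp1r3b. Igfbp1, which insulin represses, was 10.12, 10.19 and 10.05 in TLR3wt and 7.95, 6.92 and 7.85 in TLR3-/- livers, a log2 difference of -2.55 (limma adjusted p = 0.0465), lower in all 3 TLR3-/- livers. In limma's fit without TLR3wt replicate 1, 2 or 3 the adjusted p was 0.095, 0.218 and 0.109, without TLR3-/- replicate 1 or 3 it was 0.136 and 0.144, and with the probe sets at the floor in every liver it was 0.388. The other 14 tested genes of the list did not pass. Of the 15 tested genes of the list, 5 had higher and 10 lower means, where 60.9% of all tested genes were higher. At an unadjusted p under 0.05, passed by 15.7% of all tested genes, the list held 6 genes. These were Igfbp1 and the following 5, named after their values were seen. Fgf21, a hormone gene induced in fasting, had a difference of -0.67 (-0.47 without TLR3wt replicate 3), close to the floor and with 2 TLR3-/- livers at it. Tat, a tyrosine aminotransferase, had -0.39 without overlap, and Pck1 of gluconeogenesis had -0.61 with overlap. Trib3, an inhibitor of Akt, had 0.27 and Insig2, a regulator of sterol sensing, 0.23 (limma adjusted p of the 5 genes 0.187 to 0.304).

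The genes most like and most opposite to Ppp1r3b across the 6 arrays are named as a description, being the extremes of a search over many genes. Among 9091 genes above the floor on all arrays, the highest Pearson r with Ppp1r3b was 0.995 for Nfkb2, a subunit gene of NF-kappaB, followed by Eif4e3 (0.993), a cap-binding protein, Atp6v1a (0.991), a proton pump subunit, Gbp8 (0.987), an interferon-inducible GTPase, Sirpa (0.983), a myeloid inhibitory receptor, and Dst (0.983), a cytoskeletal linker. The most opposite were Srrm2 (-0.999), a splicing factor, Vps25 (-0.996), Cyp3a25 (-0.994), a cytochrome P450, and F13b (-0.994), a coagulation factor subunit. These r values hold the difference between the groups, and they rest on 6 arrays. Of the 9091 genes, 148 (1.6%) had r above 0.9 and 302 (3.3%) had r below -0.9. When each array was taken as its deviation from the group mean, 0 of these 10 genes were among the 10 most extreme. Over these deviations r ran from 0.53 (Sirpa) to 0.93 (Nfkb2) for the alike genes. For the opposite genes it ran from -0.85 (Cyp3a25) to -0.97 (Srrm2). The 10 genes were picked on an r that already holds these deviations, so nothing is read from these values. Over the 6 arrays with the group difference included, r with Ppp1r3b was -0.88 for Phka2, -0.81 for Ppp1r3c and 0.93 for Igfbp1. Over the deviations from the group means it was -0.59 for Phka2, 0.22 for Ppp1r3c and -0.70 for Igfbp1, so the sign turned for the latter pair of genes.

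Ppp1r3b and Tlr3 lie on the same chromosome, 8 in the RefSeq annotation, with 19 tested genes between them. Of these 19, 0 passed limma's adjusted p (5 at an unadjusted p under 0.05, where 15.7% of all tested genes were under it). Fgl1, named after its values were seen, had the difference of largest size, -0.97. Any chromosome segment that came with the targeted allele and the absence of the receptor cannot be told apart.

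Of the marker lists, that of macrophages and Kupffer cells differed throughout. All 12 of 12 macrophage and Kupffer cell markers were lower without overlap (median log2 difference -0.87, or -0.86 without TLR3wt replicate 3). Of these, 0 passed limma's adjusted p (12 at an unadjusted p under 0.05). Over all tested genes 7.62% were lower without overlap, and 15.7% had an unadjusted p under 0.05. The summed linear signal of the 12 markers was 2272 to 3098 in TLR3wt and 1167 to 1834 in TLR3-/- livers. At the floor on all arrays were 0 of the 12, and the abundant Clec4f and Cd5l had differences of -0.69 and -0.73. Whole liver was measured, so fewer cells of a type and less RNA per cell cannot be told apart. The part of macrophages in the lower Ppp1r3b, Ppp1r3g, Pygb and Stbd1 signals was not tested.

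Summed hepatocyte markers were level between the groups, at 54728 to 55855 in TLR3wt and 55184 to 55939 in TLR3-/- livers. Single markers differed without overlap in both directions. Cyp2e1 (0.25, or 0.14 without TLR3wt replicate 3) and Apoc3 (0.12) were higher, and Apoa1 (-0.10) and Trf (-0.10, or -0.05 without that liver) were lower. Endothelial markers gave 1262 to 1679 and 1306 to 1584 (Clec4g and Stab2 at 0.06 and -0.05, or -0.10 and -0.12 without TLR3wt replicate 3). Of the 7 endothelial markers, Lyve1 (-0.56, or -0.43 without TLR3wt replicate 3) and Pecam1 (-0.24) were lower without overlap. Stellate cell markers gave 1424 to 1578 and 1539 to 1684 (Dcn and Reln both at 0.17), with 4 of 6 tested markers higher in mean and Col1a1 (-0.49, or -0.31 without TLR3wt replicate 3) and Pdgfrb (-0.20, or -0.07 without it) lower, Col1a1 without overlap. Cyp2e1, Apoc3, Apoa1, Lyve1, Pecam1, Col1a1 and Pdgfrb were named after their values were seen. Skeletal muscle markers, relevant to the muscle forms Pygm and Ppp1r3a that were at the floor, had 5 of 7 at the floor in every liver, with Acta1 and Tnni2 at -0.04 and -0.02. Of 5 measured cholangiocyte markers 4 were at the floor, Krt19 among them, with Sox9 at 0.19, or 0.47 without TLR3wt replicate 3. Of 4 adipocyte markers 3 were at the floor, Adipoq among them, and Fabp4 was above it in the 3 TLR3wt livers alone. The erythroid markers Alas2 and Slc4a1 had differences of -0.22 and -0.34, or -0.18 and -0.16 without TLR3wt replicate 3.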

How the data were processed

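Liver RNA of 6 mice was measured on 1 array each. Per the submitters' processing notes, the authors made the deposited log2 values in Affymetrix Expression Console by RMA. RMA corrects background, normalises arrays by quantiles and gives 1 value per probe set, and differences with values at the floor are understated. The lowest deposited value is 5, reached by 57.2% to 57.6% of the values of an array, and no source used here states its origin. Array number, not read depth, limits precision.

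Groups came from the sample titles, and 0 columns held other samples. Of 35557 probe sets, 21789 had 1 gene symbol, 1621 several and 12147 none. Symbols were updated by gene identifier to RefSeq GRCm38.p6, which held 99.6% of them, and each gene was represented by its probe set with the highest mean. Probe sets that stood at the floor in every liver (18918) were dropped, which left 16639 for the test with limma 3.58.1 in R 4.3.3 (lmFit and eBayes, two-sided, Benjamini-Hochberg over all of them, threshold 0.05, group as the only term). Of these, 31 (0.186%) were called. The procedure was tested on simulated data.

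The members, lists, filter and tests were chosen with earlier results of these data known. Named are the 8 members, Tlr3, the passing genes of each pathway list or else up to 3 with the smallest unadjusted p, the 6 most alike and 4 most opposite genes to Ppp1r3b, and the 2 brightest markers of each cell type. Other names are marked or complete a short list. Listed genes without a probe set of their own were not analysed here. Alternatives covered the filter, normalization, variance model, identical probe sets, annotation, a replicate block and leaving out each mouse.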

Additional observations from a re-analysis of the deposited data

How the results depend on the processing

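The direction and size of the Ppp1r3b difference held under every alternative run, from -1.30 to -1.17 without 1 mouse and from -1.28 to -1.23 under the others. Ppp1r3c ranged from 1.02 to 1.65 and Ppp1r3g from -0.88 to -0.57 without 1 mouse, while Pygl (-0.14 to 0.10) and Gbe1 (-0.06 to 0.18) took both signs. Calls were far less stable than values. The 31 called probe sets became 0 with all probe sets entered, 18 with only those above the floor in every liver, 9 after quantile normalization again, 14 with arrays centred, 3 with identical probe sets entered once, 1 with 1-symbol probe sets alone, and 0 to 13 without 1 mouse. The 2 called pathway genes, Ppp1r3b and Igfbp1, became 0 with all probe sets entered, 1 (Ppp1r3b) after quantile normalization, with identical probe sets once and with 1-symbol probe sets alone, and 0 to 1 without 1 mouse. That 1 was Ppp1r3g without TLR3wt replicate 3 and Igfbp1 without TLR3-/- replicate 2, and the count was 0 without TLR3wt replicate 1 or 2 or TLR3-/- replicate 1 or 3. The TLR3-/- values of Ppp1r3g were all at the floor and held no spread, so nothing is read from its call. The sample titles number the mice and state no pairing. Deviations of same-numbered mice had r = 0.05, -0.01 and -0.06 over the tested probe sets. With 3 mice a group these values cannot decide whether the numbers pair the mice. A fit with the replicate number as a block called 4 probe sets and 0 pathway genes. The median difference of the 60 pathway genes, 0.02, was 0.052 with only probe sets above the floor in every liver and -0.01 with arrays centred. Nhlrc1, near 0, ranged from -0.029 to 0.032 without 1 mouse and was above 0 without TLR3wt replicate 2 or TLR3-/- replicate 1 or 2 (0.018 and 0.011 for the latter). Of the 10 genes most alike or opposite to Ppp1r3b, 3 to 7 were found again without 1 mouse. The cause of these shifts was not tested. No member had a second probe set to try. Levels at or near the floor, as for Ppp1r3g, give only bounds.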
